A study of Rattus norvegicus with 16 samples.

Results

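The 300 brightest circRNA probes of the rat spinal cord array were described, out of 14145 circRNA probes on each array. They were selected on measured values. A probe had to be well above background, and not marked as an outlier spot, in both channels on all 8 arrays, which 11023 probes met. The 300 probes with the highest and the 300 with the lowest mean difference between IP and SUP were left out, and the 300 members are the remaining probes with the highest mean log2 sum of IP and SUP over all 8 rats. Since these values chose the members, their brightness, their order and their mean ratio of IP to SUP are given as a description and were not tested. The contrast between the groups was not used in the choice, because the means ran over all rats without regard to treatment.

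Each array came from the lumbar spinal cord (L4 - L6) of 1 adult male SD rat, with 4 rats in the morphine tolerance (MT) group and 4 in the normal saline (NS) group. MT rats received 10 μg of morphine hydrochloride in 10 μl through an intrathecal tube, in the morning and the evening, over 7 days. NS rats received 10 μl of saline on the same schedule. The cords were taken on the morning after the 7 days, 1 h after an injection of morphine or saline. The last dose and the repeated doses cannot be told apart. An antibody against N6-methyladenosine (m6A) was used to divide each rat's total RNA into the bound, modified fraction (IP) and the supernatant with the unmodified RNA (SUP), and both were treated with RNase R. Cy5 marked IP and Cy3 marked SUP throughout, so a dye difference and the difference between the fractions cannot be told apart. By their codes on the slide, the arrays of each group fill a row of their own, so that position and group cannot be told apart either.

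CircRNAs are closed RNA loops formed when a downstream splice site joins an upstream one. They lack free ends, which makes them resistant to exonucleases such as RNase R, and they are known to be plentiful in nervous tissue. m6A is placed on adenines by methyltransferases such as METTL3, removed by FTO and ALKBH5, and bound by reader proteins of the YTH family. The arrays identify a circRNA by the ID of its probe. No table used here pairs these IDs with a host gene or a probe sequence, so the members are given by probe ID, and gene lists and markers of spinal cord cells could not be applied.

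The word abundant needs a limit. The brightness of a spot depends on its probe as well as on the amount of RNA, so the order of the members is an order of signal and not of molecules. The signal of every rat entered the mean that chose the members, so the counts in the next sentences describe that choice and are no measure of its stability. Between 279 and 295 of the members were among the 300 brightest eligible probes of any single rat, 252 were so in every rat, and the lowest place of any member in any rat was 503, for ASCRPR002721. The 300 brightest probes by the MT mean and by the NS mean shared 284. None of the spots of the members was saturated in either channel. Their median signal was 407 to 623 times the local background in IP and 212 to 331 times in SUP, where the median over all circRNA probes was 3.16 to 4.47 times in IP and 3.83 to 5.97 times in SUP. Of the members, 49% lay in the upper part of the array by rows, so that their spots were not gathered there. At the threshold, ASCRPR005352 and ASCRPR005096 were just inside with a mean deposited log2 sum of 2.502 each, and ASCRPR004180 and ASCRPR011031 were just outside with 2.501 and 2.500. Without the step that leaves out extreme ratios, 21 probes with a low IP would have replaced members, and 0 with a high IP.

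A large share of all circRNA signal came from these 300 probes. In IP, they held 44.8% to 48.8% of the summed processed intensity of all circRNA probes in the MT rats and 47.2% to 51.9% in the NS rats. In SUP, the share was 39.8% to 44.8% in the MT rats and 42.9% to 48.5% in the NS rats. The groups overlapped in both fractions, although the mean was lower in MT, at 47.5% ± 1.87 (SD, n = 4) against 49.8% ± 2.16 (SD, n = 4) in IP and at 42.3% ± 2.06 (SD, n = 4) against 46.0% ± 2.76 (SD, n = 4) in SUP. The 10 brightest alone held 5.11% to 6.11% of IP and 5.83% to 6.48% of SUP.

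For the comparisons below, log2 processed signals were scaled, array by array and in each channel, with the probes for spike-in RNAs that are added to each sample. The m6A quantity is the normalized log2 IP intensity. The m6A level is the percentage that IP makes up of both fractions summed. Expression is log2 of that sum.

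The brightest member of all was ASCRPR003948. Its expression in MT rats 1 to 4 was 20.45, 20.07, 20.07 and 20.42, and in NS rats 1 to 4 it was 20.18, 20.28, 19.88 and 19.91, so that the groups overlapped. This circRNA also had the lowest mean m6A level of the members. Its level was 6.25%, 12.9%, 8.10% and 2.55% in the MT rats and 7.41%, 6.56%, 9.19% and 9.64% in the NS rats. The lowest and the highest value both belonged to MT rats. It held 1.41% to 1.84% of the SUP signal of all circRNA probes but 0.119% to 0.400% of the IP signal. Neither its level (log2 change of IP/SUP of -0.35, standard error 0.47) nor its expression (0.19, standard error 0.14) passed the test, with limma P of 0.476 and 0.214.

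The next places were held by ASCRPR009250, ASCRPR004513, ASCRPR006668, ASCRPR009854, ASCRPR009853, ASCRPR009934, ASCRPR010902, ASCRPR006667 and ASCRPR012907, in the order of their mean summed signal in the deposited values. ASCRPR009250 had an expression of 19.30 ± 0.08 (SD, n = 4) in MT and 19.17 ± 0.10 (SD, n = 4) in NS. ASCRPR012907, the last of the 10, had 18.85 ± 0.15 (SD, n = 4) and 18.92 ± 0.17 (SD, n = 4). None of the 10 passed the criterion in any of the measures. Of all circRNAs tested, 1.8%, 4.5% and 10.9% passed it in m6A quantity, m6A level and expression.

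**Figure D1:**
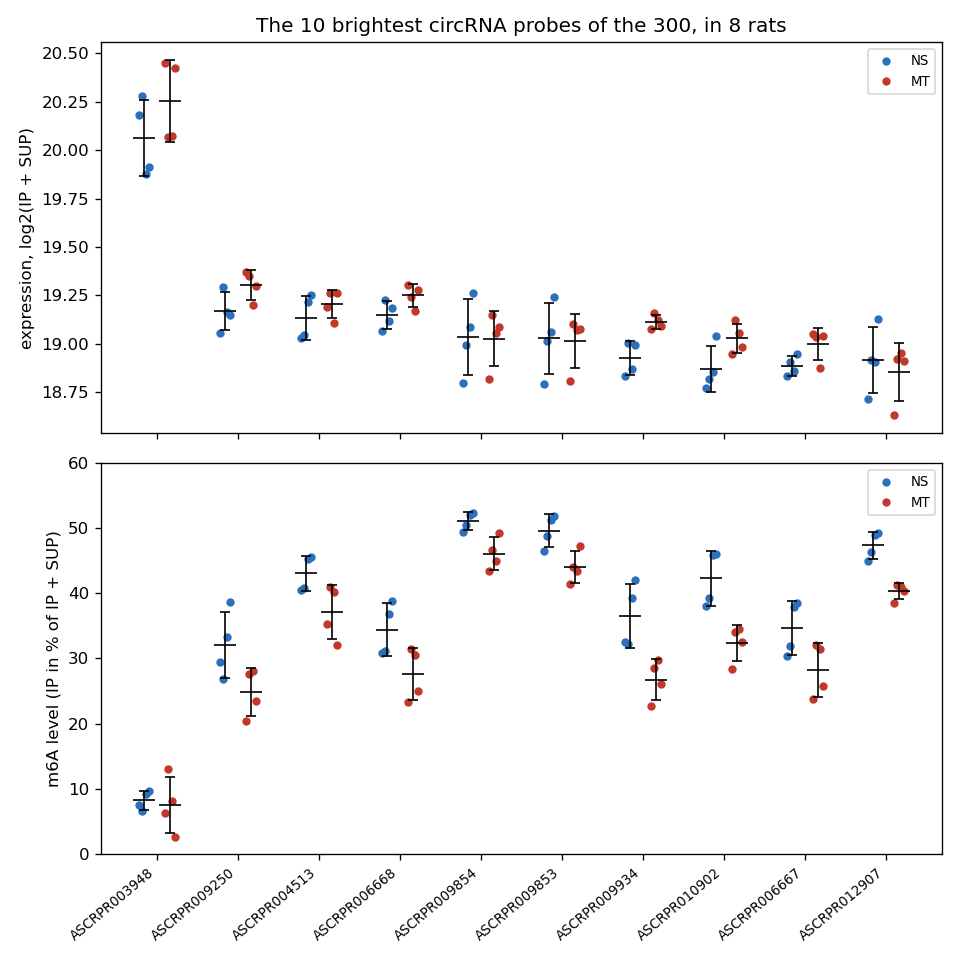
Expression, log2 of IP plus SUP (upper panel), and m6A level in percent (lower panel) of the 10 brightest members, left to right in their order, with 1 point per rat (NS blue, MT red) and the mean with SD in black (n = 4). ASCRPR003948 stands above the other 9 in expression and has the lowest level, and in ASCRPR009934, ASCRPR010902, ASCRPR009854 and ASCRPR012907 every MT level lies below every NS level on the spike-in scale.

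In 4 of these 10 the m6A level of every MT rat was below that of every NS rat on the spike-in scale, as it was in 8.82% of all circRNAs. The direction of the level rests on the scaling, since 121 of the 300 members were higher in MT with the 75th percentiles of the arrays set equal and 258 with quantile normalization. For ASCRPR010902 the level was 28.4%, 34.1%, 34.6% and 32.5% in the MT rats and 38.0%, 39.3%, 45.9% and 46.1% in the NS rats. The highest MT rat was thus below the lowest NS rat. The change of log2(IP/SUP) was -0.61 (standard error 0.17), with a limma P of 0.00661, an adjusted P of 0.288 and a two-sided exact permutation P of 0.0286, the smallest that 4 rats against 4 can give. For ASCRPR009934 the MT levels of 22.7%, 28.5%, 29.7% and 26.1% lay below the NS levels of 32.5%, 32.2%, 39.3% and 42.0%. Its expression was also separate, with 19.11 ± 0.04 (SD, n = 4) in MT and 18.93 ± 0.09 (SD, n = 4) in NS, a log2 change of 0.19 that is far below the fold change of 1.5. ASCRPR009854 had a mean level of 46.1% in MT and 51.1% in NS, and ASCRPR012907 had 40.3% and 47.4%.

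On the spike-in scale SUP held more of the signal than IP in most members. The mean m6A level over 8 rats had a median of 38.3% over the members, from 7.83% for ASCRPR003948 to 55.8% for ASCRPR005317, and 90% of the members lay between 16.6% and 49.4%. The median over the 11023 eligible probes was 42.8%. A mean level above 50% was found in 13 members, and one under 20% in 24. At the upper end, ASCRPR005317 had 54.3% ± 4.60 (SD, n = 4) in MT and 57.2% ± 1.37 (SD, n = 4) in NS, followed by ASCRPR005351 and ASCRPR005295, both at 54.8% over 8 rats. At the lower end, ASCRPR008255 and ASCRPR007031 followed ASCRPR003948 with 8.23% and 8.53%. Both this split and where the members stand against other probes rest on the dye normalization. Before it, with the spike-ins as the scale, the median level of the members was 52.7% to 58.3% per array, so that IP then held more than SUP. In the background-subtracted signal, the median log2(IP/SUP) of the members was 0.79 to 1.25 per array, against -0.71 to 0.66 over all probes. In the processed signal, which the scanner software had normalized between dyes, it was -0.11 to -0.01 against 0.10 to 0.17.

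The spread between rats depended on the measure. In expression, the pooled SD within groups had a median of 0.11 log2 over the members, against 0.20 over the other 10723 eligible probes. With the medians of the arrays set equal, the order turned, with 0.26 for the members and 0.21 for the others, so that the order of these sets rests on the scaling. The steadiest member on the spike-in scale was ASCRPR008394, with 17.77 ± 0.06 (SD, n = 4) in MT and 17.78 ± 0.03 (SD, n = 4) in NS. The least steady on that scale was ASCRPR011057, with 17.40 ± 0.58 (SD, n = 4) and 16.38 ± 0.97 (SD, n = 4). The ratio of IP to SUP had a median SD of 0.21 log2 over the members and 0.30 over the others, and with the medians set equal 0.11 and 0.30, so that this ratio varied less in the members on both scales. In IP the members varied slightly more than the others on both, with 0.20 against 0.19 and with 0.25 against 0.21. In SUP the values were 0.13 against 0.27 on the spike-in scale and 0.27 in both sets with the medians set equal.

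To ask whether the m6A quantity of the brightest circRNAs differed between the groups, limma was run over all 12893 circRNAs with IP above background on at least 4 arrays, and all 300 members were among them. The median of the members' IP was 14.90, 15.28, 15.22 and 15.05 in MT rats 1 to 4 and 15.18, 15.29, 15.47 and 15.53 in NS rats 1 to 4. The groups overlapped, since MT rats 2 and 3 were above NS rat 1. Over the members, the log2 change between MT and NS had a median of -0.25, against 0.01 over all circRNAs tested, and 289 members were lower and 11 higher in MT. Less the median of all circRNAs, the change of the members was -0.26, which no scaling by 1 constant per array and channel can alter. It was 0.02 with quantile normalization, 0.03 with loess and Aquantile normalization and -0.13 before dye normalization, so that its sign rests on the normalization. Leaving out 1 rat gave -0.37 to -0.17, the latter without MT rat 1. None of the 300 passed the criterion of a fold change of at least 1.5 and P under 0.05 in either direction, where 1.67% of all circRNAs tested were hypermethylated and 0.132% hypomethylated by it. At an unadjusted limma P under 0.05, 55 members were lower and 0 higher, against 4.06% and 5.82% of all circRNAs tested. The number lower turned on single rats, with 10 without MT rat 1, 32 without MT rat 4, 150 without NS rat 1, 16 without NS rat 2, 8 without NS rat 3 and 7 without NS rat 4, where 1.55% to 5.03% of all circRNAs were lower. With quantile normalization 2 members were lower and 7 higher, against 2.82% and 5.17% of all, with loess and Aquantile normalization 1 and 9, against 1.95% and 5.34%, and before dye normalization 6 and 2, against 2.23% and 6.97%. The number lower was 125 with the deposited values, 114 with normexp and 92 with the replicate number as a block, against 4.64%, 6.36% and 3.8% of all. Every MT rat was below every NS rat in 9 members and above in 0, against 2.44% and 2.74% of all, and below in 26 with the deposited values, 15 with normexp and 2 with the 75th percentile, against 2.09%, 2.6% and 2.2%. No member had an adjusted P under 0.05, and the smallest was 0.496. By the methods' t-test, which they name for qRT-PCR and not for the arrays, 0 members passed the criterion, against 1.18% of all circRNAs, and 37 were lower at an unadjusted P under 0.05, against 4.96%. The direction was the same with the deposited values and the 75th percentile, with 295 and 290 members lower, but 124 members were higher with quantile normalization and 163 with loess and Aquantile normalization, which make the arrays alike.

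ASCRPR007174 had the largest decrease in m6A quantity among the members. Its IP was 14.73, 15.25, 15.21 and 15.25 in the MT rats and 15.35, 15.58, 15.68 and 15.81 in the NS rats. No MT rat reached the lowest NS rat. The log2 change was -0.49 (standard error 0.16), with a limma P of 0.0134 and an exact permutation P of 0.0286. Its SUP was 15.96 ± 0.15 (SD, n = 4) in MT and 15.97 ± 0.09 (SD, n = 4) in NS, so that the fractions moved unequally. ASCRPR008232 and ASCRPR011536 had the same log2 change of -0.49 and groups that did not overlap either. In the deposited values, where the changes in m6A quantity were lower, these 3 passed the criterion, with -0.66, -0.66 and -0.65, where 0.799% of all circRNAs were hypomethylated by it. With quantile normalization the changes were -0.25, -0.24 and -0.24, and with loess and Aquantile normalization -0.23, -0.22 and -0.23. The limma P of ASCRPR008232 was then 0.0528 and 0.0696, and that of ASCRPR011536 was 0.0695 with loess.

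The changes in m6A quantity spread less over the members than over all probes, and the members' distance from all probes was smaller in MT in SUP as well. From the 5th to the 95th percentile, the members' changes in m6A quantity ran from -0.38 to -0.06, and those of all circRNAs from -0.31 to 0.53. The full range over the members was -0.49 to 0.34. In IP, the median of the members stood 6.42 ± 0.24 (SD, n = 4) log2 above that of all probes in the MT rats and 6.77 ± 0.26 (SD, n = 4) in the NS rats. In SUP, the distance was 6.56 ± 0.25 (SD, n = 4) and 6.86 ± 0.23 (SD, n = 4). The groups overlapped in both fractions, with MT rat 4 above NS rats 1 and 2. These distances do not depend on the spike-ins, because the scaling of an array moves the members and all probes alike. The signal before dye normalization also gave a smaller distance in MT, with 7.21 against 7.41 in IP and 5.77 against 6.22 in SUP. The distances were not calculated with quantile or with loess and Aquantile normalization. There, the members' change in m6A quantity less the median of all circRNAs was 0.02 and 0.03, against -0.26 on the spike-in scale. No test was made of these medians.

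**Figure D2:**
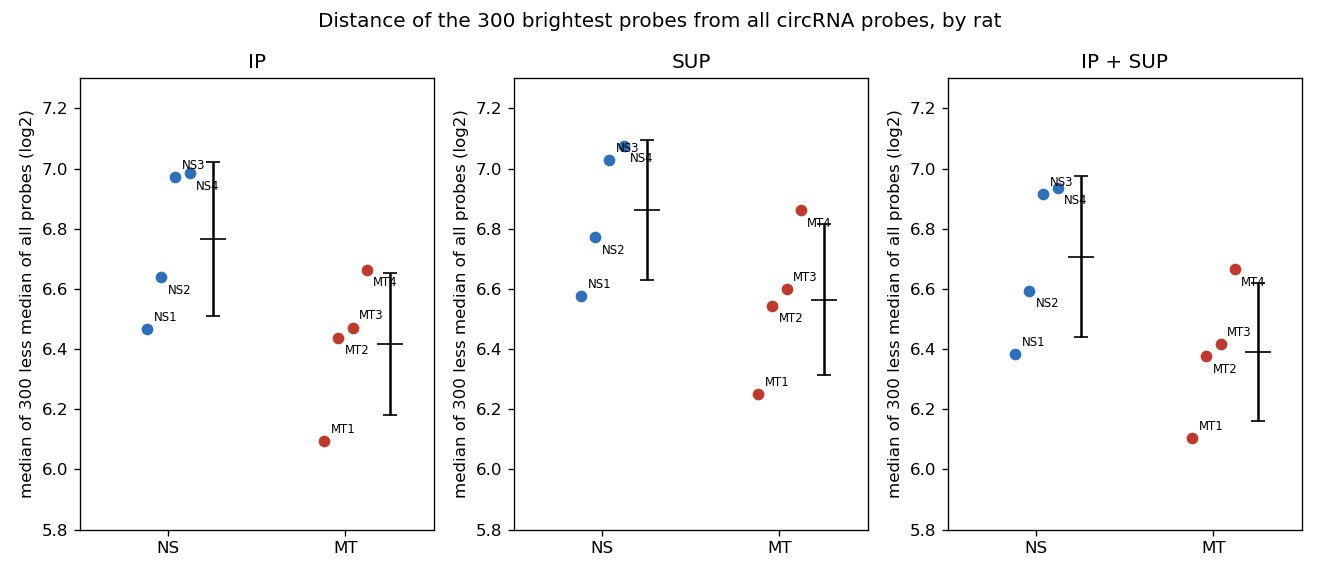
Distance in log2 between the median of the 300 members and the median of the 12669 circRNA probes tested, in IP, SUP and their sum, with 1 labelled point per rat (NS blue, MT red) and the mean with SD beside them (n = 4). In each panel the MT mean is lower, with MT rat 1 the lowest and NS rat 4 the highest of the 8.

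The distance followed brightness beyond the members on the spike-in scale, the only scale on which bands were made. All 11023 eligible probes were placed in bands by their mean expression. The median log2 change in m6A quantity was -0.24 in the brightest 300, of which 276 are members, -0.22 in places 301 to 1000, -0.05 in places 1001 to 3000, 0.03 in places 3001 to 6000 and 0.06 in the rest. The change was thus shared by the bands next to the members and was not tested as particular to them. For expression, the medians of the same bands were -0.07, -0.07, 0.0025, 0.15 and 0.21. Since the bands are cut from the same arrays, they share every property of those arrays.

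The m6A level was lower in MT in 299 of the 300 members, and most other circRNAs were lower too. The median level of the members was 34.0%, 39.7%, 37.6% and 33.2% in MT rats 1 to 4 and 37.9%, 37.5%, 43.0% and 43.8% in NS rats 1 to 4. MT rats 2 and 3 lay within the NS range, and NS rats 1 and 2 within the MT range. Over the members, the change of log2(IP/SUP) had a median of -0.27, against -0.23 over the 12669 circRNAs tested. Past the criterion, 4 members were hypomethylated and 0 hypermethylated, where 4.49% and 0.00789% of all were so. At an unadjusted limma P under 0.05, 69 members were lower and 0 higher, against 14.0% and 0.616% of all circRNAs. The number lower was 28 without MT rat 1, 41 without MT rat 4, 28 without NS rat 3, 25 without NS rat 4 and 28 with the replicate number as a block, where 8.3%, 13.3%, 7.81%, 7.29% and 13.3% of all circRNAs were lower. Every MT rat was below every NS rat in 80 members and above in 0, against 8.82% and 0.516% of all. With the deposited values 19 members were separate and lower and 29 were lower at P under 0.05, against 7.2% and 14.7% of all. The smallest adjusted P among the members was 0.288.

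The direction of the level rests on the scaling between the fractions. With the 75th percentiles of the arrays set equal within a channel, the median change was -0.02 over the members and 0.02 over all circRNAs, with 179 members lower and 121 higher. At P under 0.05, 12 members were then lower and 0 higher, against 4.89% and 7.36% of all circRNAs, and with quantile normalization 4 and 8, against 4.66% and 8.25%. Every MT rat was below every NS rat in 21 members and above in 8 with the 75th percentile, against 2.57% and 5.69% of all, and in 5 and 46 with quantile normalization, against 2.21% and 6.75%. Quantile normalization gave 258 members higher and loess with Aquantile normalization 236. The standing against all circRNAs turned as well, with medians of 0.15 over the members and 0.08 over all with quantile normalization, and of -0.0063 and -0.20 before dye normalization. The number of hypomethylated members was 12 without MT rat 2, 8 without NS rat 1 and 10 without NS rat 2, or 4%, 2.67% and 3.33% of them, where 6.73%, 7.19% and 8.1% of all circRNAs were so.

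**Figure D3:**
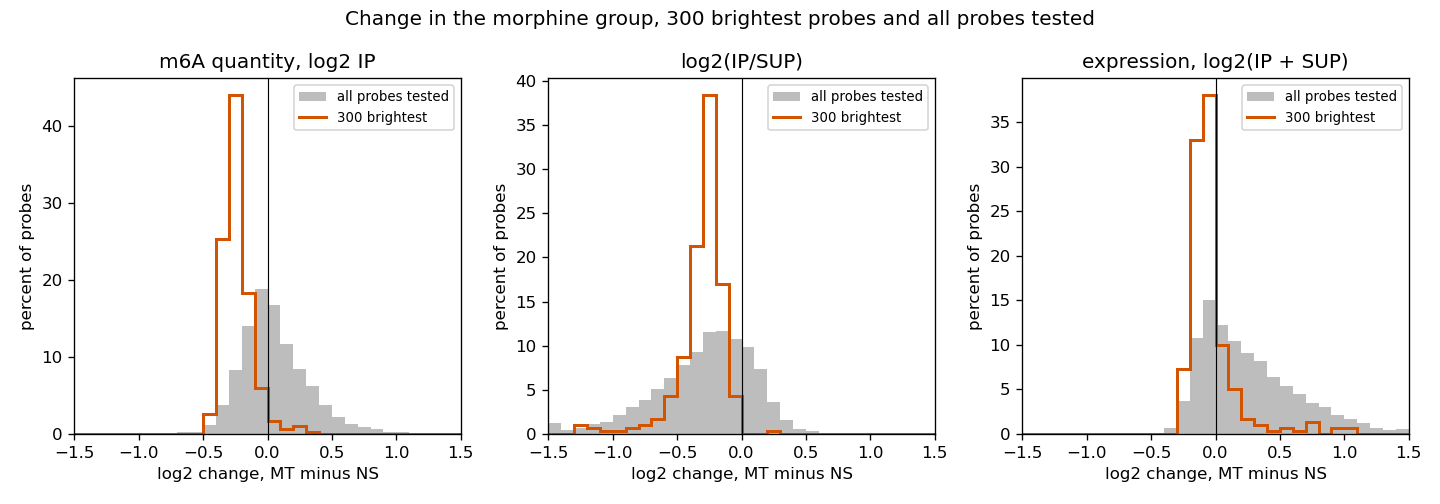
Log2 change between MT and NS in m6A quantity, in log2(IP/SUP) and in expression, as the percentage of the 300 members (orange line) and of all circRNA probes tested (grey) in steps of 0.1, with values beyond 1.5 placed in the end steps. With the spike-in normalization the members form a narrow peak at -0.25 in m6A quantity and at -0.08 in expression, to the left of the medians of all circRNAs at 0.01 and 0.16, while the medians of log2(IP/SUP) are -0.27 and -0.23.

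The 4 hypomethylated members were ASCRPR002721, ASCRPR013670, ASCRPR005450 and ASCRPR004174. In ASCRPR002721 the level was 6.80%, 6.54%, 7.79% and 5.47% in the MT rats and 10.9%, 11.4%, 20.7% and 17.1% in the NS rats. The MT rats were close together, and NS rats 3 and 4 were highest. The change of log2(IP/SUP) was -1.27 (standard error 0.27), with an adjusted P of 0.288 and an exact permutation P of 0.0286. Its m6A quantity hardly differed, at 12.62 ± 0.46 (SD, n = 4) in MT and 12.72 ± 0.15 (SD, n = 4) in NS, while SUP was 16.45 ± 0.30 (SD, n = 4) and 15.27 ± 0.43 (SD, n = 4). ASCRPR013670 had levels of 6.45%, 10.0%, 10.6% and 12.0% in the MT rats and 15.0%, 14.5%, 25.5% and 24.2% in the NS rats. Here IP was lower in MT, with 13.05 ± 0.28 (SD, n = 4) against 13.49 ± 0.10 (SD, n = 4), and every MT rat was below every NS rat in it. ASCRPR005450 had a mean level of 13.8% in MT and 25.9% in NS. It no longer passed with quantile normalization, at -0.69, with loess and Aquantile normalization, at -0.71, or before dye normalization, at -0.81. ASCRPR004174 had 18.8% and 31.3%, and no longer passed without MT rat 1, NS rat 3 or NS rat 4, nor with the 75th percentile, quantile, loess and Aquantile, or normexp normalization, nor before dye normalization.

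On the spike-in scale the expression of the members had nearly the same median in both groups, whereas most other circRNAs were higher in MT. The median expression of the members was 16.65, 16.69, 16.71 and 16.76 in MT rats 1 to 4 and 16.63, 16.80, 16.70 and 16.76 in NS rats 1 to 4, and the ranges nearly coincided. The median log2 change was -0.08 over the members, with 65 higher and 235 lower, against 0.16 over all 12669 circRNAs. Past the criterion, 6 members were upregulated and 0 downregulated, where 10.8% and 0.0395% of all circRNAs were so, a smaller share than in the background for the increases. At an unadjusted limma P under 0.05, 10 members were higher and 6 lower, against 19.0% and 2.01% of all. The number lower rests on the scaling, with 77 with the 75th percentile, 78 with normexp and 30 with the deposited values, against 10.5%, 4.49% and 6.2% of all, while 5, 8 and 7 members were higher, against 10.9%, 20.1% and 12.3%. It was 0 without MT rat 1, MT rat 2, NS rat 2, NS rat 3 or NS rat 4, and 20 without NS rat 1, where 0.647% to 2.97% of all circRNAs were lower. Every MT rat was above every NS rat in 9 members and below in 5, against 8.89% and 2.02% of all. This balance turned with the scaling, with 5 above and 45 below with quantile normalization, against 5.08% and 5.69% of all, and 7 and 19 with loess and Aquantile normalization, against 5.27% and 4.26%. The smallest adjusted P among the members was 0.155. Less the median of all circRNAs, the change of the members was -0.24 on this scale, and with the 75th percentile set equal the medians were -0.28 and -0.02. The difference was -0.03 with quantile normalization and 0.02 with loess and Aquantile normalization, so that its sign rests on the normalization as well. Leaving out 1 rat gave -0.33 to -0.13, the latter without MT rat 1. The number upregulated was 11 without NS rat 1 and 2 without NS rat 3, or 3.67% and 0.667% of the members, where 18.9% and 4.75% of all circRNAs were so.

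The increases past the criterion on the spike-in scale belonged mostly to members with little IP. ASCRPR002721 had an expression of 16.42, 16.90, 16.66 and 16.19 in the MT rats and 15.86, 15.67, 15.06 and 15.43 in the NS rats. The groups did not overlap, and the log2 change was 1.04 (standard error 0.21), with an adjusted P of 0.155 and an exact permutation P of 0.0286. ASCRPR005450 followed with 0.97 (standard error 0.21), from 15.74 ± 0.34 (SD, n = 4) in NS to 16.71 ± 0.31 (SD, n = 4) in MT. These 2 probes were past the criterion in level as well, and both kept their increase in expression past it under every alternative run.

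ASCRPR010928 is the brightest of the upregulated members, in place 16. Its expression was 19.36, 18.74, 18.77 and 19.24 in the MT rats and 18.63, 18.62, 17.67 and 18.08 in the NS rats. NS rats 3 and 4 were lowest, and NS rats 1 and 2 came close to MT rats 2 and 3. Its change was 0.78 (standard error 0.25), its mean level 7.62% in MT and 10.0% in NS. NS rats 3 and 4 were also lowest in ASCRPR006460 and ASCRPR007031, with changes of 0.75 (standard error 0.26) and 0.71 (standard error 0.19). In these 3 members the change fell under the fold change of 1.5 without NS rat 3, at 0.58, 0.54 and 0.58, and with the 75th percentile, at 0.49, 0.45 and 0.42. It did so too in ASCRPR010928 and ASCRPR007031 with quantile normalization, at 0.55 and 0.51, in ASCRPR006460 and ASCRPR007031 with the deposited values, at 0.58 and 0.55, and in ASCRPR007031 with normexp, at 0.57. Without MT rat 1 the limma P of ASCRPR006460 was 0.0517.

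**Figure D4:**
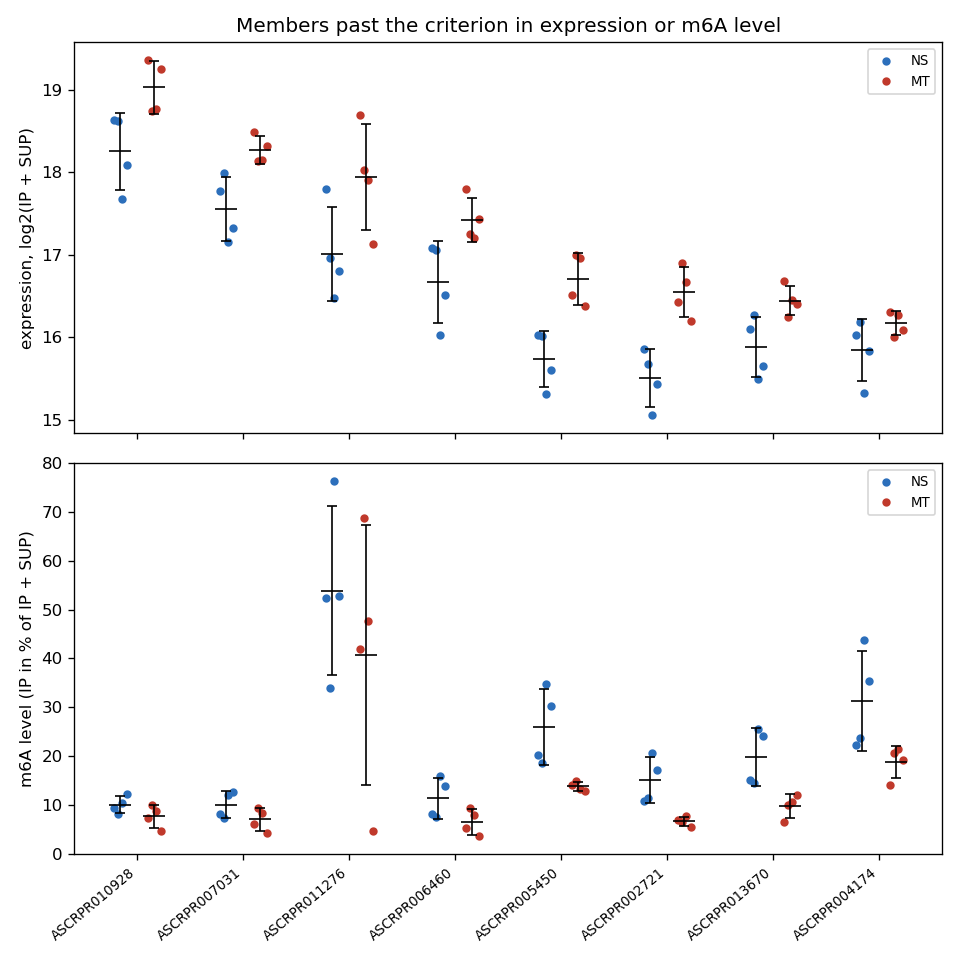
Expression, log2 of IP plus SUP (upper panel), and m6A level in percent (lower panel) of the 8 members past the criterion in expression or level, with 1 point per rat (NS blue, MT red) and the mean with SD in black (n = 4). In expression the groups are separate in ASCRPR010928, ASCRPR007031, ASCRPR006460, ASCRPR005450 and ASCRPR002721, and they overlap in ASCRPR011276, whose level runs from 4.65% to 76.3% over the 8 rats.

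The last of the 6, ASCRPR011276, had uneven values between rats. Its expression was 18.69, 18.03, 17.91 and 17.13 in the MT rats and 17.80, 16.96, 16.47 and 16.80 in the NS rats, and the groups overlapped. Its IP was 17.43, 17.49, 16.84 and 12.70 in the MT rats, with MT rat 4 far below the rest, and 16.86, 15.40, 16.08 and 15.88 in the NS rats. ASCRPR011057 showed the same in IP, with 14.21, 14.69, 14.38 and 11.13 in the MT rats and 13.87, 13.65, 13.49 and 13.57 in the NS rats. Without MT rat 4, these were the 2 members that passed the criterion in m6A quantity, with log2 changes of 1.19 and 0.78, or 0.667% of the members, where 11.9% of all circRNAs were hypermethylated. The adjusted P of ASCRPR011057 was then 0.0458, and 329 of all 12893 circRNAs had one under 0.05. MT rat 4 also had the smallest share of circRNA probes above background in IP, with 83.6% against 89.1% or more in the other rats, and the part of this in the result was not tested.

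Members with a mean level under 20%, a limit chosen after the values were seen, were described apart from the rest. Of these 24, 22 had a higher expression in MT and 5 were past the criterion, and their median change was 0.25, where 69.5% of all circRNAs were higher, 10.8% were past the criterion for an increase and the median was 0.16. Of the other 276, 43 were higher and 1 was past it, with a median of -0.09. In SUP, which makes up most of the signal in the first set, the median changes were 0.31 and 0.01. The median SUP of the 24 was 16.83, 16.31, 16.39 and 16.54 in MT rats 1 to 4 and 16.28, 16.34, 15.71 and 15.80 in NS rats 1 to 4, so that NS rats 3 and 4 were below the other 6 and NS rat 2 was above MT rat 2. The median SUP of all circRNA probes had the same low rats, with 8.90 and 8.93 in NS rats 3 and 4 and 9.36 to 9.85 in the other 6, and its part in these increases was not tested. No test was made between the sets, because the level shares the SUP value with expression.

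**Figure D5:**
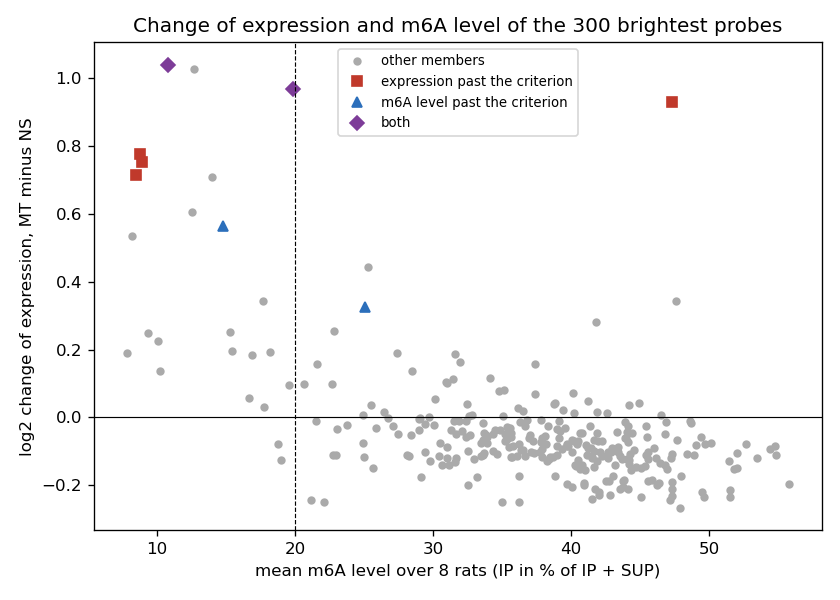
Log2 change of expression between MT and NS against the mean m6A level over 8 rats, on the spike-in scale. Each of the 300 members is 1 point. Points past the criterion are marked by measure, the dashed line is at 20%, and 5 of the 6 members with upregulated expression lie to its left.

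Among all members, the log2 changes of expression and of IP/SUP had a correlation of -0.72, and those of expression and m6A quantity 0.58. The 300 points of each come from the same 8 arrays, and both measures hold the IP or SUP value of the same spots, so these values are descriptions. The mean expression on the spike-in scale and the mean deposited log2 ratio of IP to SUP were nearly unrelated within the members, with -0.03.

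Some probe numbers that follow each other were both members, and some of these pairs share a probe. Of the 300, 36 had the next or the previous number among the members, or 12.0%, in 21 pairs, where 4.29% of the other 10123 probes left after those with extreme ratios were removed had a member next to them. What the numbering follows is not given in the sources used here. The expression of consecutive pairs over the 8 rats had a median correlation of 0.76, against 0.46 over all 44850 pairs of members. Their levels differed by a median of 2.27 percentage points, against 8.53 over all pairs. ASCRPR009853 and ASCRPR009854, both among the 10 brightest, had a correlation of 0.99 and levels of 46.9% and 48.6%. ASCRPR007406 and ASCRPR007407 were unlike, with a correlation of -0.51 and levels of 12.5% and 38.4%. Probes of one host gene may share sequence, and the array files do not show which do.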

How the data were processed

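IP and SUP of 8 rats were measured on circRNA arrays. The authors extracted the intensity of each spot with Agilent Feature Extraction 11.0.1.1, per the labels, which subtracted the background and normalized the dyes. The authors also deposited log2 values of 12893 circRNAs, which equal the log2 processed intensity less 1 constant per array and channel, an average of spike-in intensities. These log2 values chose the members. The members and lists were chosen with earlier results of these data known.

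Here the log2 processed intensity was normalized with the mean of the 102 named spike-in probes. Whether the authors averaged these probes is not known, since the constants differ. Each circRNA probe has 1 spot per array. Spots marked as outliers were left out, and a circRNA was tested when well above background on at least 4 arrays. The test of MT against NS was that of limma 3.58.1, run in R 4.3.3 over all circRNAs, on log2 IP, log2(IP/SUP) and log2 of the sum, with Benjamini-Hochberg adjustment over all circRNAs tested. The criterion was that of the methods, at least a fold change of 1.5 with an unadjusted P under 0.05, and the fold change of the level was the ratio of mean percentages. Single members were also given a two-sided exact permutation P from the 70 possible draws of 4 of 8 rats. The scripts were tested on simulated data. Python 3.11.15 with numpy 2.4.6 and pandas 2.3.3 made the tables, and matplotlib 3.10.9 the figures. The number of arrays limits the precision.

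The members named are the 10 brightest, those past the criterion with separate groups (or else those with the largest change at P under 0.05) by measure, the highest and lowest in mean level and in spread, and those at the threshold, of which a part is given. ASCRPR011276, ASCRPR007406 and ASCRPR007407 were named after their values were seen, although ASCRPR011276 is also among the largest in spread.

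Alternatives were the deposited values, the 75th percentile, quantile, and loess with Aquantile normalization, normexp (offset 50) on the median signal, other filters, outlier spots kept, the methods' t-test (named there for qRT-PCR), a replicate block, leaving out each rat, and the 100 or 200 brightest members. The mean signal that had been planned for the share of intensity was replaced by the median signal less the median background. The signal before dye normalization and the limit of 20% in level were chosen after seeing the data.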

Additional observations from a re-analysis of the deposited data

Results flagged for a closer look

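In groups of 4 rats, 1 value stood far from the other 3, by the size of the gap against the range of the group, in 13 of the 206 groups looked at over 32 named probes and the medians of the members. Chance flags about 1 in 20 groups. The cause was not tested in any of them.

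In the MT group, rat 1 was low in ASCRPR009853 (expression 18.81, the others 19.07 to 19.10), in ASCRPR012907 (IP 17.26, the others 17.60 to 17.67, and expression 18.63, the others 18.91 to 18.95), in ASCRPR007174 (IP 14.73, the others 15.21 to 15.25) and in ASCRPR008232. In the last, IP was 14.77 against 15.26 to 15.32, expression was 16.38 against 16.69 to 16.75 and the m6A level was 32.8% against 36.9% to 37.6%. Rat 3 was low in ASCRPR006667, with an expression of 18.88 against 19.04 to 19.05.

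MT rat 4 was low in IP in ASCRPR011276 (12.70, the others 16.84 to 17.49) and ASCRPR011057 (11.13, the others 14.21 to 14.69), and its m6A level was low in ASCRPR005317 (47.4%, the others 56.0% to 56.9%).

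In the NS group, rat 1 was low in the m6A level of ASCRPR002849 (46.2%, the others 49.99% to 50.6%) and in the expression of ASCRPR005351 (16.90, the others 17.04 to 17.06).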

How the results depend on the processing

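In m6A quantity, the number of members past the criterion was 0 as reported and 6 with the deposited values, where 1.8% and 1.66% of all circRNAs passed, and the median change was -0.42 with the deposited values, -0.018 with quantile normalization and 0.0079 with loess and Aquantile normalization, the only setting run that turned its sign. In m6A level, the number was 7 with the deposited values and 2 each with quantile normalization, loess and Aquantile normalization and the signal before dye normalization, where 6.35%, 1.33%, 0.955% and 3.14% of all passed. The median change of log2(IP/SUP) was -0.019 with the 75th percentile, 0.15 with quantile normalization, 0.10 with loess and Aquantile normalization, -0.0063 before dye normalization and -0.14 with normexp. In expression, the number was 3 with the deposited values, 2 with the 75th percentile and 3 with quantile normalization, where 7.98%, 5.19% and 5.12% of all passed, and the median change was -0.25, -0.28 and, with normexp, -0.16. The cause was not tested.

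Among the 100 brightest members, 0 were past the criterion in m6A level and 3 in expression. Among the 200 brightest, 0 were past it in m6A level and 4 in expression. Fewer members were counted in these sets. Of all circRNAs, 4.5% and 10.9% passed in m6A level and expression. Leaving out 1 rat gave 0 to 2 members in m6A quantity, 3 to 12 in m6A level and 2 to 11 in expression, where 0.993% to 12.2%, 2.01% to 8.11% and 4.78% to 19% of all circRNAs passed, with median changes of -0.33 to -0.18, -0.35 to -0.20 and -0.12 to -0.04. No spot of a member was saturated, so leaving such members out changed nothing.

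With a replicate block, 0 members passed in m6A quantity, 4 in m6A level and 9 in expression, where 2.7%, 4.7% and 16.9% of all circRNAs passed. Rats with the same number had deviations that correlated over the eligible probes at 0.52, -0.04, -0.02 and 0.47 in IP and at 0.62, -0.23, -0.12 and 0.59 in SUP, and over the members at 0.80, -0.32, -0.03 and 0.41 in IP and at 0.70, -0.49, 0.15 and 0.38 in SUP. Since not every pair was above 0.1 in any of these, the numbers were not taken to pair the rats. The 15 named changes include the decreases in expression of ASCRPR002849, ASCRPR003323 and ASCRPR004089, which were not given above. Of the 15, none turned its sign in the 285 recalculations, and 259 kept their side of the criterion.

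Of the members, 296 were shared when the spike-ins scaled the values, 297 with the 75th percentile, 277 by SUP alone, 265 by IP alone, 279 without leaving out extreme ratios, 270 before dye normalization and 297 to 299 without 1 rat. The mean share of the signal was 48.7% in IP and 44.2% in SUP as reported, 52.3% and 39.6% with the median signal less background, and 52.5% and 40.4% before dye normalization. The number of rats limits all tests, and no member had an adjusted P under 0.05 with all 8 rats.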
